A study of Mus musculus with 8 samples.

Results

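The genes described here are 10 genes that neutrophils and other myeloid cells express: S100a8, S100a9, Fpr1, Fpr2, Clec4d, Clec4e, Csf3r, Cxcr2, Mmp8 and Itgam. They were picked by name, as neutrophil genes near 0 in the vehicle group, from 55421 Ensembl genes measured by RNA-seq in mouse testis, and all 10 were found in the files. The data are 8 libraries from testis of wild-type male mice, 2 in each of 4 groups. CTRL mice received phosphate buffered saline (PBS). LPS mice received a single intraperitoneal dose of lipopolysaccharide, a component of the bacterial outer membrane that triggers inflammation through the receptor Tlr4. LPS+DHEA mice also received dehydroepiandrosterone (DHEA), a steroid precursor of androgens, 6 h after LPS. LPS+DHEA+Nb mice received DHEA with Nb23-bi, an agent named but not described in the labels, at the same time. LPS is thus shared by every group except CTRL, and DHEA by both treated groups. The sources used here give no strain, age, dose or collection time and do not say if paired libraries are from different mice, so SDs and p-values measure the spread between libraries, which may be technical.

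S100a8 and S100a9 pair to form calprotectin, a calcium- and metal-binding protein that fills the cytosol of neutrophils and is released at sites of inflammation. Fpr1 and Fpr2 are receptors that guide phagocytes along gradients of formyl peptides from bacteria and mitochondria, and Cxcr2 does the same for CXC chemokines. Csf3r is the receptor of G-CSF, the growth factor of neutrophils, and Itgam is the alpha chain of the integrin Mac-1, with which myeloid cells adhere to and cross the vessel wall. Clec4d and Clec4e (Mincle) are C-type lectin receptors for microbial glycolipids and for products of dying cells, and Mmp8 is the collagenase stored in neutrophil granules. Several of these genes, Itgam, Clec4e and the formyl peptide receptors among them, are also expressed by monocytes and macrophages, which are resident in the testis.

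The label holds in part. The members had 103 and 96 counts in all in the CTRL libraries, and 6 of the 10 were at 0 in both. Csf3r (71 and 44 counts) and Itgam (28 and 43) were not near 0 there. Ly6g, which defines mouse neutrophils, was at 0 in every library except LPS+DHEA+Nb 1, where it had 5 counts. A count of 0 allows up to 3 counts, or 0.0469 to 0.0491 CPM (counts scaled to a common library size), in a library. Camp, a granule peptide, was at 0 in every library except CTRL 2, with 4 counts. The granule gene Ngp had no count in CTRL, 34 and 23 after LPS, 16 and 0 with DHEA and 0 and 4 with DHEA and Nb23-bi. Retnlg, a resistin-like gene of neutrophils, had no count in CTRL either, and 28 and 11, 26 and 8, and 8 and 0 in the same 3 LPS-exposed groups. Some genes that mark neutrophils were thus detected in the LPS-exposed libraries, while Ly6g and Camp were at or near 0 throughout. Of 18 granule protein genes and 28 other neutrophil genes listed, 13 and 20 passed the filter on low counts. In LPS against CTRL, 11 of those 13 and 13 of those 20 had a positive log2 fold change, and 2 and 7 a negative one. The 16 genes of a macrophage marker list, none at 0, summed to between 129.8 and 158.8 CPM in CTRL and between 103.8 and 124.4 CPM over the 6 LPS-exposed libraries, of which none reached the CTRL range. That gap depends on H2-Ab1, H2-Aa and Cd74, at 22, 14.4 and 27.5 CPM in CTRL 1 but 12, 2.77 and 6.72 CPM in CTRL 2. With these genes left out, the sum of LPS 2 lies within the CTRL range. In LPS against CTRL, 11 of the 16 genes had a negative log2 fold change and 5 a positive one. Among the latter, Adgre1 had 6.06 and 9.43 CPM against 5.18 and 4.53. Germ cell markers of the labelled tissue summed to between 13130 and 16050 CPM. In whole tissue, fewer cells of a type and less RNA per cell cannot be told apart.

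The promoters of the 4 members with the largest drop from LPS to LPS+DHEA+Nb among those with counts in both groups are shown, since these genes lie as neighbours in pairs. S100a8 and S100a9 lie 22.6 kb apart on chromosome 3 and Clec4d and Clec4e 6.5 kb apart on chromosome 6, each with 0 protein-coding genes between them, and the same holds for Fpr1 and Fpr2, 3.9 kb apart on chromosome 17. Each sequence is the 250 bases before the RefSeq gene start (GRCm38.p6), on the gene's strand. Capitals mark matches on either strand to TTGCNNAA (the core of C/EBP sites), GAGGAA (the core of sites of the myeloid ETS factor PU.1), GGG and CC with 5 bases of any kind between them (NF-kB), TTCNNNGAA (STAT) or TGANTCA (AP-1).
S100a8 (chr3:90668821-90669070, plus strand): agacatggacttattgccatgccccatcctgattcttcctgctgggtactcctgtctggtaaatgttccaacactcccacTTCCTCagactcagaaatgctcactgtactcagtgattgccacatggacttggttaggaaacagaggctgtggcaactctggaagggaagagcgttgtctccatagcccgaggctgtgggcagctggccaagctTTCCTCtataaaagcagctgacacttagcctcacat
S100a9 (chr3:90695722-90695971, minus strand): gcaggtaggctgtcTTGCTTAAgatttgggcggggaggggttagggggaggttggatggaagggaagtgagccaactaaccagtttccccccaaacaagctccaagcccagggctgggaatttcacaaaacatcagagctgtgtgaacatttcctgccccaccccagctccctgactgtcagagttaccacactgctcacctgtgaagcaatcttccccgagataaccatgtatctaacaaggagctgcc
Clec4d (chr6:123261857-123262106, plus strand): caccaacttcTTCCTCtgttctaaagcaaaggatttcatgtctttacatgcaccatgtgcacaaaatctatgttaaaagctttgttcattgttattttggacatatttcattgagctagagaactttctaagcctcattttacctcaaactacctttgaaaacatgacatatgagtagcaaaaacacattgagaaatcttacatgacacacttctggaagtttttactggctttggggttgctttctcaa
Clec4e (chr6:123289872-123290121, minus strand): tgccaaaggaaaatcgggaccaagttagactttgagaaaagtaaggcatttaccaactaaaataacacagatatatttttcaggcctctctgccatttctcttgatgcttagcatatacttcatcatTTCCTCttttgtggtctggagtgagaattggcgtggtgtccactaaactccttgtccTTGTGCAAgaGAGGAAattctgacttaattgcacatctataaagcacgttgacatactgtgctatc

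GAGGAA lay in the 250 bases of 8 of the 10 members, all except S100a9 and Fpr1, and in 23.4% of 32536 promoters of the same length. In S100a8 it lay at -170 to -165 and at -36 to -31, counted from the RefSeq start. The last 93 bases of the S100a8 window, that match among them, lie inside the gene as GENCODE M21 annotates it, as do the last 109 of Csf3r. Clec4e carried TTGCNNAA at -66 to -59 beside GAGGAA at -56 to -51. TTGCNNAA lay in 3 members (S100a9, Clec4e and Mmp8) and in 9.57% of all promoters. The NF-kB letters lay in Csf3r, Cxcr2 and Itgam, where 46% of all promoters hold it, and the Itgam matches overlap each other. TTCNNNGAA lay in Fpr2 alone (7.04% of all promoters) and TGANTCA in 0 members (6.73%). A match describes the letters in this window and no binding was measured.

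In GRCm38 with the GENCODE M21 annotation, S100a8 spans bases 90668978 to 90670035 and S100a9 bases 90692632 to 90695721 of chromosome 3. Fpr1 spans 17876471 to 17883940 and Fpr2 17887824 to 17893952 of chromosome 17. Clec4d spans 123262111 to 123275265 and Clec4e 123281789 to 123289870 of chromosome 6. The partners of each of these pairs lie on opposite strands. Csf3r lies on chromosome 4 (126024550 to 126044440), Cxcr2 on chromosome 1 (74153989 to 74161246) and Mmp8 on chromosome 9 (7558456 to 7568485). Each count is for a whole gene, so exons and transcripts are not told apart.

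**Figure D1:**
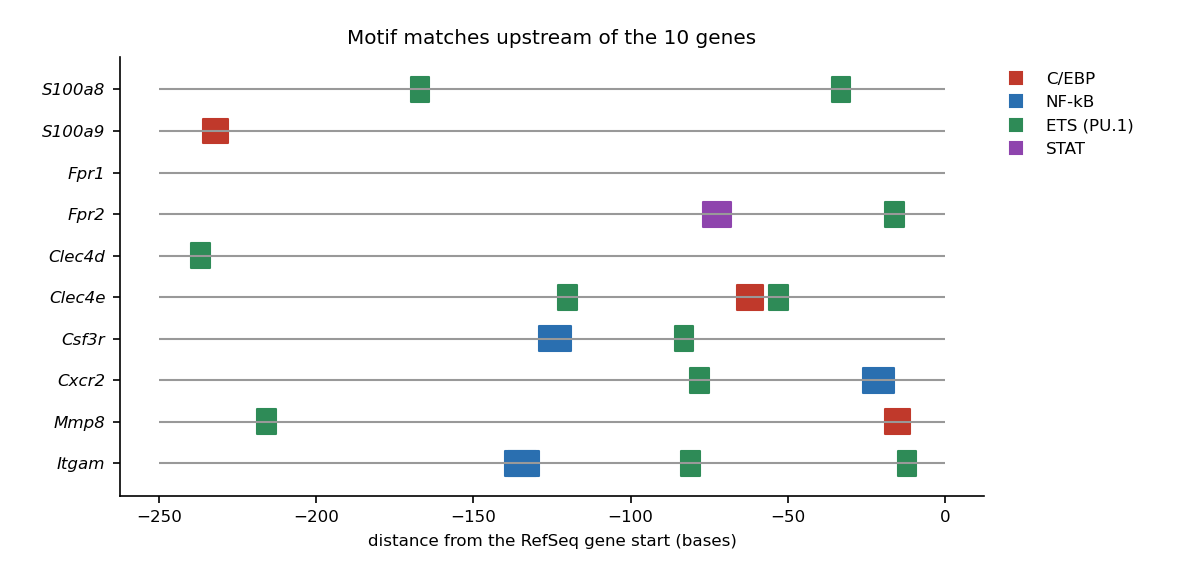
Matches to the 4 motifs found in the 250 bases before the start of each of the 10 genes, one row per gene, with the distance from the RefSeq gene start in bases on the x axis. Green boxes (GAGGAA) are in 8 of the 10 rows, Fpr1 has no box, and the NF-kB box of Itgam covers 2 overlapping matches.

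The members' counts were low in every library, so they are given as counts. The libraries held 61291062 to 64521795 counts each. The values are whole numbers with an excess of multiples of 4 among low values, and 25 of the 58 member values above 0 are multiples of 4. How they were made was not tested, so all intervals, which cover counting error only, may be too narrow. A bound against CTRL at 0 is given with counts as deposited and then with counts divided by 4.

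After LPS, 9 of the 10 members had more CPM in both LPS libraries than in either CTRL library, where 18.9% of the 26414 genes tested did so. The members were chosen as near 0 in CTRL, so this count and all values against CTRL are a description with no test. Mmp8 was the exception. The same held for 8 members in LPS+DHEA (18.6% of genes) and for S100a8, S100a9, Fpr1, Fpr2 and Itgam in LPS+DHEA+Nb (16.4% of genes). S100a8 had 81 and 49 counts after LPS and none in CTRL. Against a floor of 3 counts per library, that is at least 21.7-fold higher, or 5.34-fold with counts divided by 4 (1.03 ± 0.348 CPM in LPS, SD, n = 2, as for every mean ± SD here). S100a9 had 155 and 75 counts after LPS against 0 and 5 in CTRL, a ratio of 46.6 with an exact 95% interval of 19.5 to 143.6. The LPS libraries of both calprotectin genes lay far above CTRL, with the first LPS library the higher in each.

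Among the chemoattractant receptors, Fpr1 had 39 and 49 counts after LPS and none in CTRL, at least 14.7-fold higher (3.68-fold with counts divided by 4). Fpr2 had 32 and 61 against none, at least 15.6-fold (3.86-fold divided by 4). Cxcr2 had 9 and 16 against none, at least 4.19-fold, a bound that shrinks to 1.01-fold with counts divided by 4. For these 3 genes the second LPS library was the higher, opposite to the calprotectin genes. Fpr2 shares 48 bases of its exons with Fpr3, another gene of the family, which had 0 counts in all 8 libraries.

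The LPS libraries lay far apart for the lectin receptor gene Clec4e, with 204 and 57 counts, and both CTRL libraries had none, so it was at least 43.5-fold higher (10.8-fold with counts divided by 4). Its neighbour Clec4d had 92 and 54 counts after LPS against 4 and 4, a ratio of 18.3 (exact 95% interval 9.06 to 43.3). Both LPS libraries of both genes exceeded both CTRL libraries. The protease gene Mmp8 had 12 and 0 counts after LPS and none in CTRL. It rests on 1 library and did not pass the filter on low counts, which the other 9 passed. Csf3r and Itgam had counts above the filter's minimum of 10 in every library, and S100a8, S100a9, Fpr1, Clec4d, Clec4e and Cxcr2 passed through the LPS and LPS+DHEA libraries.

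The G-CSF receptor gene Csf3r stood apart from the others, with 89 and 72 counts after LPS against 71 and 44. Its ratio of LPS to CTRL was 1.4 (exact 95% interval 1.1 to 1.8), and its lowest LPS library lay 1 count above the highest CTRL library. On a scale of CPM per kb of exons, Csf3r was the highest member in CTRL (0.252 ± 0.0875) and ranked 8 of 10 in LPS (0.354 ± 0.0489). S100a9 was the highest in LPS on that scale (3.49 ± 1.68 CPM per kb), followed by S100a8 (1.48 ± 0.501) and Itgam (1.19 ± 0.896). Clec4d (0.723 ± 0.259), Fpr2 (0.571 ± 0.257), Fpr1 (0.528 ± 0.0906) and Clec4e (0.415 ± 0.328 CPM per kb) came next, and Cxcr2 (0.0652 ± 0.0265) and Mmp8 (0.0389 ± 0.0551) last. From S100a8 down to Csf3r each gene's LPS libraries overlapped those of the next, while both libraries of S100a9 lay above those of S100a8 and both of Csf3r above those of Cxcr2. The Itgam value leaves out Gm49368, a gene model that shares most of its exons. In LPS 2, Itgam had 176 counts and Gm49368 463, so the rank and SD of Itgam depend on how counts were split between them.

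**Figure D2:**
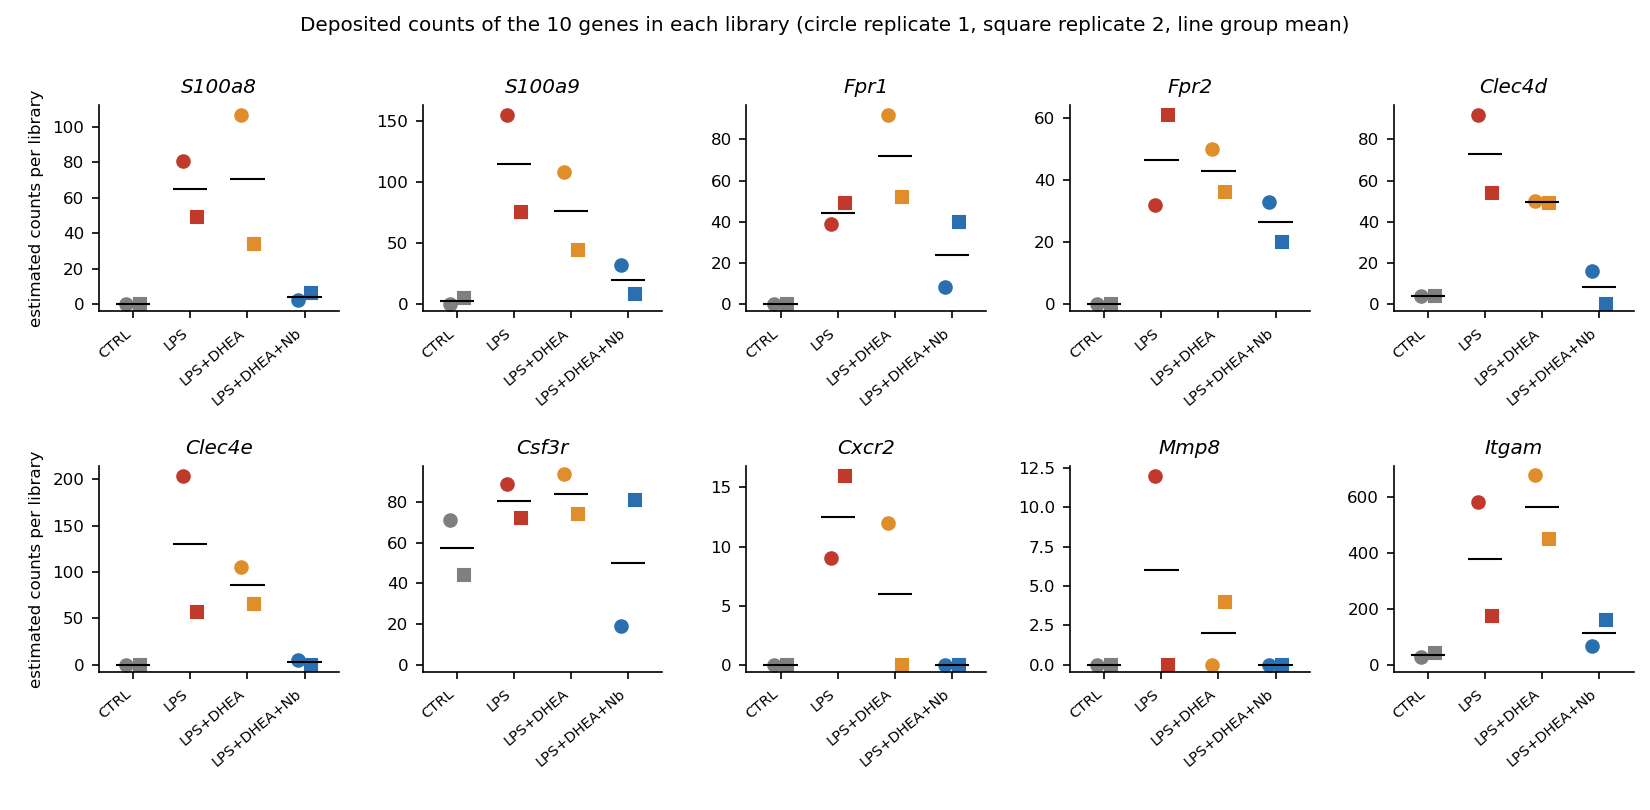
Deposited counts of each gene in each of the 8 libraries, with groups on the x axis, circles for replicate 1, squares for replicate 2 and a line at the group mean of 2 libraries. In LPS+DHEA+Nb, S100a8 (2 and 6), Clec4d (16 and 0) and Clec4e (5 and 0) lie below all LPS and LPS+DHEA libraries, while Csf3r has counts in every group.

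Itgam needs its neighbour to be read. Gm49368, a gene model on the same strand of chromosome 7, shares 68.7% of the exonic bases of Itgam (GRCm38 chromosome 7, 128062640 to 128118491, GENCODE M21), and the share of counts given to each gene model differed from library to library. The CTRL libraries had 28 and 43 Itgam counts, those of LPS 583 and 176, those of LPS+DHEA 679 and 452 and those of LPS+DHEA+Nb 67 and 159. Gm49368 had 66 and 0, 0 and 463, 2 and 0, and 112 and 191 counts in the same libraries. Together, CTRL libraries had 94 and 43 counts, LPS libraries 583 and 639, LPS+DHEA libraries 681 and 452 and LPS+DHEA+Nb libraries 179 and 350. The gap between the LPS libraries of Itgam, 583 against 176 counts, was thus absent from the sum. The ratio of LPS to CTRL was 10.7 for Itgam alone and 8.92 for the sum (9.7 ± 0.736 against 1.09 ± 0.587 CPM), and that of LPS+DHEA+Nb to CTRL was 3.18 alone and 3.83 summed.

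**Figure D3:**
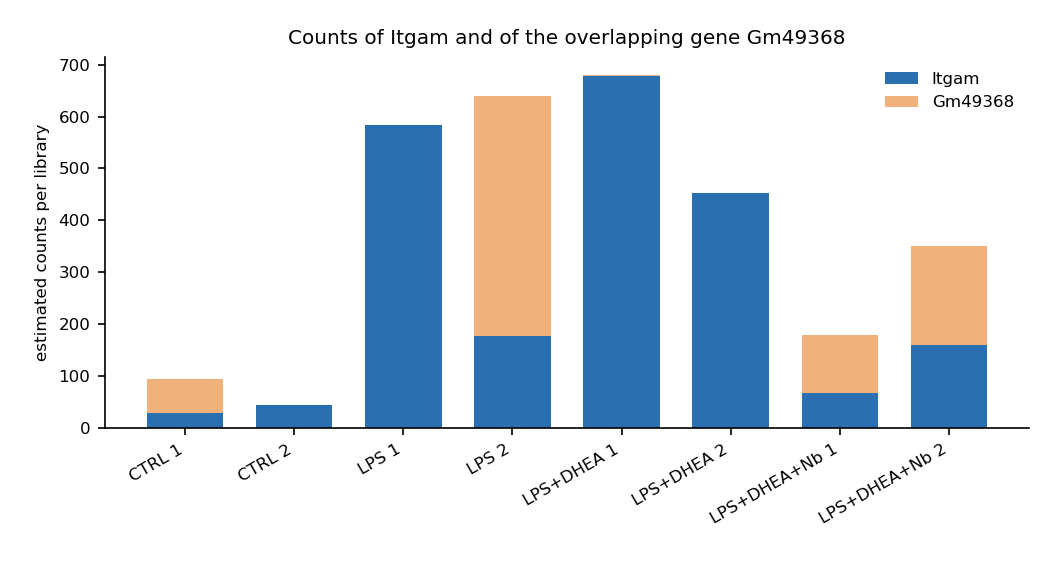
Counts of Itgam (blue) and Gm49368 (orange) stacked for each library. Itgam holds 27.5% of the locus in LPS 2, 29.8% in CTRL 1 and 37.4 and 45.4% in the LPS+DHEA+Nb libraries, and 99.7% or more in the other 4.

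What a DHEA injection after LPS changed is read from LPS+DHEA and LPS, a comparison that does not use the CTRL libraries that chose the members. The members were still chosen with earlier results of these data known, so no comparison here is independent of that choice. The LPS libraries serve in this comparison and in the next. No member was called by edgeR's quasi-likelihood test (0 of 9 tested, every adjusted p = 1, and 0 at an unadjusted p under 0.05), where 0.0189% of the 26414 genes were called and 3.51% had an unadjusted p under 0.05, and DESeq2 also called 0. Both libraries lay on one side of both LPS libraries for 1 member in each direction, Fpr1 higher and Clec4d lower, where 16.1% and 15.7% of genes did so. S100a8 had 107 and 34 counts in LPS+DHEA against 81 and 49 in LPS, and S100a9 had 108 and 44 against 155 and 75. The LPS+DHEA libraries of S100a8 thus enclosed the LPS libraries, and those of S100a9 overlapped them.

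The receptors were as variable. Fpr1 had 92 and 52 counts in LPS+DHEA, a ratio of 1.64 to LPS. Fpr2 had 50 and 36, a ratio of 0.927. Both Fpr1 libraries lay above both LPS libraries, the lower by 3 counts, and the Fpr2 libraries lay within the LPS range. Clec4d had 50 and 49 counts (ratio 0.685) and Clec4e 105 and 66 (ratio 0.66), below the LPS mean in both libraries of each gene. Csf3r had 94 and 74 counts (ratio 1.05), Cxcr2 12 and 0, and Mmp8 0 and 4. The ratio for Itgam was 1.5 alone and 0.93 with Gm49368 added, so its direction depends on that sum. Leaving out single libraries turned the direction of Clec4e, Csf3r, Fpr2, Itgam and S100a8 in this comparison, and without LPS replicate 1 S100a9 was level.

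The expression of the 10 members together was 20.4 and 9.74 CPM in LPS and 20.3 and 13.3 CPM in LPS+DHEA (15.1 ± 7.54 and 16.8 ± 4.97). In CTRL it was 1.65 and 1.5 CPM and in LPS+DHEA+Nb 2.86 and 4.95 CPM. With Gm49368 counted with Itgam, the group means were 2.1 CPM in CTRL, 18.8 in LPS, 16.8 in LPS+DHEA and 6.29 in LPS+DHEA+Nb. In LPS+DHEA, 8 of the 10 members were higher in the first library. The 6 red blood cell markers also summed to more in that library, 72.2 against 37.6 CPM, and their part in the members' values was not tested.

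**Figure D4:**
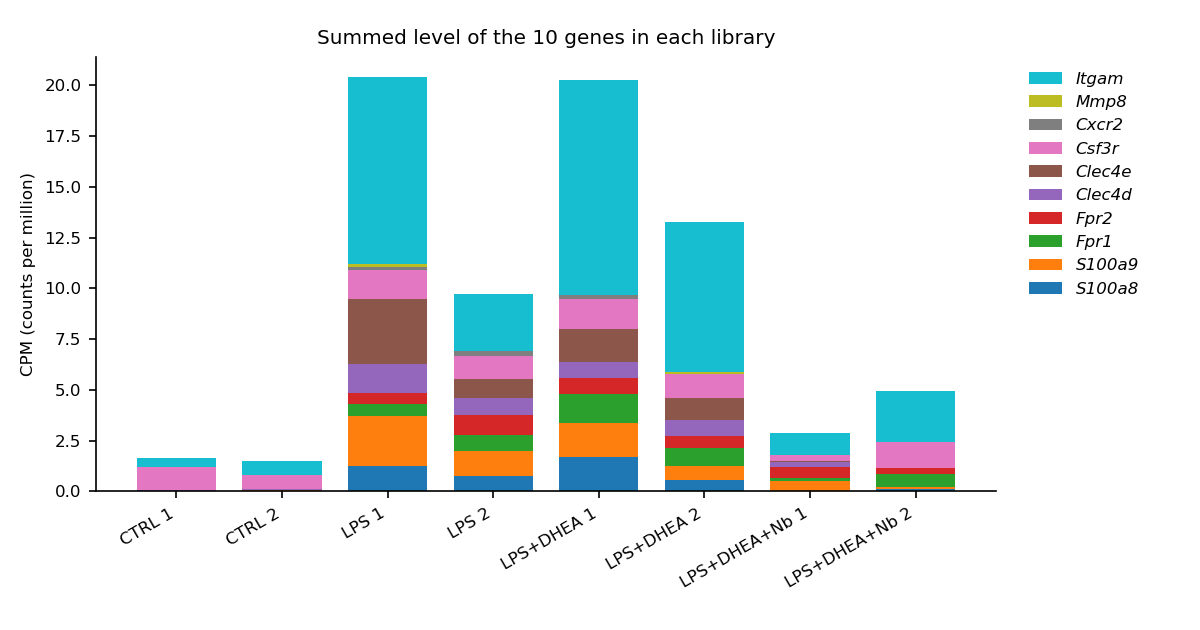
CPM of the 10 genes stacked for each library, with 1.5 CPM in CTRL 2 the lowest and 20.4 CPM in LPS 1 the highest. LPS+DHEA+Nb 1 and 2 stand at 2.86 and 4.95 CPM, below the lowest LPS library (9.74 CPM), and Itgam is the largest block in all 6 LPS-exposed libraries.

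DHEA given together with Nb23-bi after LPS was read against LPS alone. The mean of all 10 members was lower in LPS+DHEA+Nb, and for 6 of them (S100a8, S100a9, Clec4d, Clec4e, Cxcr2 and Itgam) both libraries lay below both LPS libraries, where 18.6% of genes did so. No member was called by edgeR's quasi-likelihood test with Benjamini-Hochberg adjustment over all genes (0 of 9, where 0.17% of genes were called). At an unadjusted p under 0.05 there were 5 (6.56% of genes), and DESeq2 called 3 (S100a8, Clec4e and Itgam). Over all genes DESeq2 called 207, where edgeR called 45. The median log2 fold change of the 9 tested members was -2.52, or -2.07 with Cxcr2, at 0 in LPS+DHEA+Nb, set to its bound, and that of all genes tested was 0. S100a8, S100a9, Fpr1, Clec4d, Clec4e and Cxcr2 passed the filter through the LPS and LPS+DHEA libraries. The members' median and the counts of members lower in LPS+DHEA+Nb are thus in part fixed by the filter and are a description. The same limit holds for the folds, intervals, p-values and DESeq2 calls of the genes that passed it this way.

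Clec4e had 5 and 0 counts in LPS+DHEA+Nb against 204 and 57 in LPS, 52.4-fold lower (exact 95% interval 22.2 to 163.3). It had an edgeR adjusted p of 0.195 and a DESeq2 adjusted p of 3.48e-06, the adjusted p-values over all alternatives running from 3.41e-06 to 0.727. S100a8 had 2 and 6 counts against 81 and 49, 16.3-fold lower (interval 8.06 to 38.7). Its edgeR adjusted p was 0.154 and its DESeq2 adjusted p was 0.00523, with a range of 0.00512 to 0.692. Both genes were at or near the count floor in LPS+DHEA+Nb, close to their level in CTRL. The call for both genes thus depends on the test, made on the same counts. As both passed the filter through groups where they were high, these values are a description.

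S100a9, the partner of S100a8, had 32 and 8 counts against 155 and 75, 5.78-fold lower (edgeR adjusted p = 0.619). Clec4d had 16 and 0 counts against 92 and 54, 9.18-fold lower (edgeR adjusted p = 0.507), and was called without LPS+DHEA+Nb replicate 1 (edgeR adjusted p = 0.0196), the library that holds its 16 counts. That leaves 1 library with 0 counts, assumed to vary like the other groups. Cxcr2 had 0 and 0 counts against 9 and 16, at least 4.21-fold lower (edgeR adjusted p = 0.768). This bound is for counts as deposited, and that of the same LPS counts against CTRL nearly vanished with counts divided by 4. Mmp8 was at 0 in both libraries, against 12 and 0 in LPS.

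Both formyl peptide receptor genes and Csf3r had smaller folds against LPS than the members above. Fpr1 had 8 and 40 counts against 39 and 49, a 1.85-fold lower mean (edgeR adjusted p = 0.914). Fpr2 had 33 and 20 against 32 and 61, 1.77-fold lower (edgeR adjusted p = 0.899). Csf3r had 19 and 81 against 89 and 72, 1.62-fold lower (edgeR adjusted p = 0.914). Its mean was also below that of CTRL (0.788 ± 0.692 against 0.911 ± 0.316 CPM), with overlapping libraries. In each of these 3 genes 1 LPS+DHEA+Nb library lay within the LPS range, and without LPS+DHEA+Nb replicate 1 Csf3r was level with LPS. Fpr1 and Fpr2 were at 0 in both CTRL libraries, so their LPS+DHEA+Nb means were at least 7.98-fold and 8.8-fold above CTRL (2-fold and 2.16-fold with counts divided by 4), where S100a8 was at least 1.33-fold above it, with no bound left after the division. Whether members differ from each other in this drop was not tested.

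Itgam alone was 3.37-fold lower in LPS+DHEA+Nb than in LPS (edgeR adjusted p = 0.753), and the sum with Gm49368 was 2.33-fold lower (4.17 ± 1.91 against 9.7 ± 0.736 CPM, edgeR adjusted p = 0.651). The DESeq2 call of Itgam (adjusted p = 0.0309) ended when the gene models were summed (DESeq2 adjusted p = 0.0593). Both LPS+DHEA+Nb libraries of the sum, at 179 and 350 counts, lay below both LPS libraries and above both CTRL libraries.

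**Figure D5:**
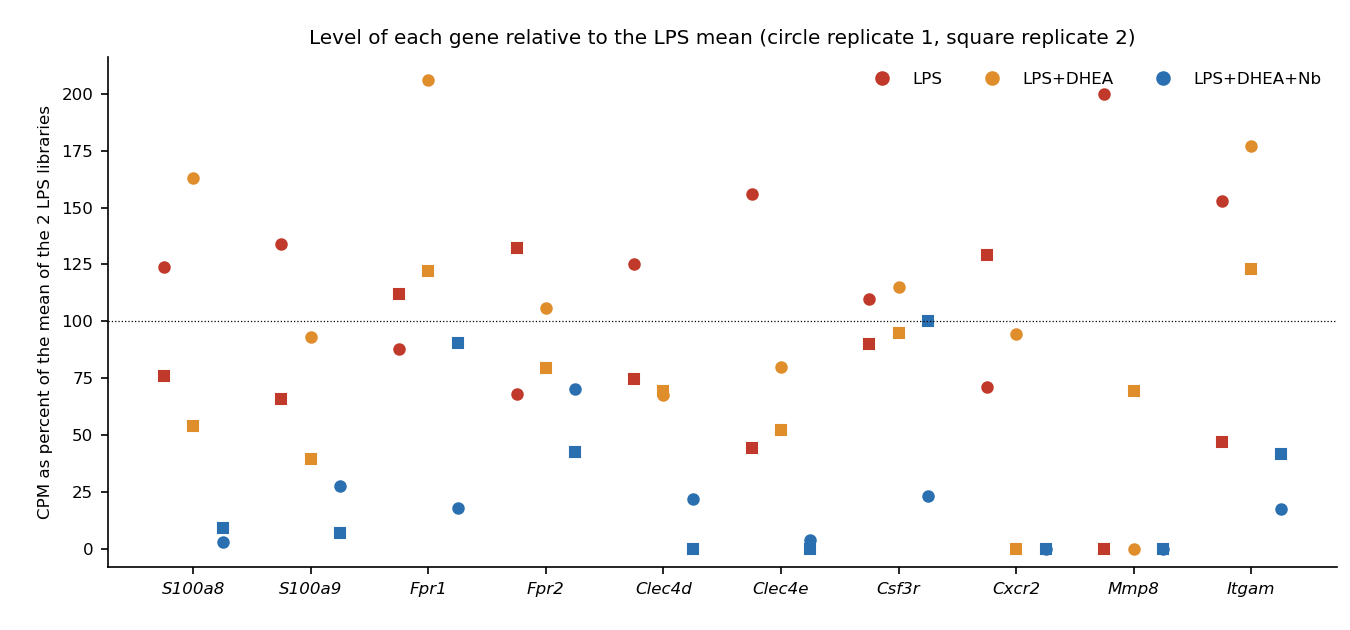
CPM of each gene in each LPS-exposed library as a percent of the mean of the 2 LPS libraries, with circles for replicate 1, squares for replicate 2 and a dotted line at 100. LPS+DHEA+Nb libraries (blue) are at 3.06 and 9.19% for S100a8 and 3.82 and 0% for Clec4e, while Csf3r is at 100% in replicate 2.

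Comparing LPS+DHEA+Nb with LPS+DHEA asks what Nb23-bi changed beside DHEA. It shares the LPS+DHEA+Nb libraries with the comparison above. Both libraries lay below both LPS+DHEA libraries for 7 members (the calprotectin, formyl peptide receptor and lectin genes and Itgam), where 17.1% of genes did so. As above, the counts of members in this comparison are in part fixed by the filter and are a description. So are the folds, intervals and p-values of the members that passed it through the LPS and LPS+DHEA libraries. edgeR's quasi-likelihood test called 0 of 9 (0.0871% of genes were called), 6 had an unadjusted p under 0.05 (4.4% of genes), and DESeq2 called the same 3 genes as above. Over all genes DESeq2 called 116, where edgeR called 23. S100a8, at 2 and 6 counts against 107 and 34, was 17.7-fold lower (exact 95% interval 8.84 to 42.3, edgeR adjusted p = 0.249, DESeq2 adjusted p = 0.00466, range 0.00466 to 0.994). Clec4e, at 5 and 0 against 105 and 66, was 34.6-fold lower (interval 14.6 to 108.3, edgeR adjusted p = 0.451, DESeq2 adjusted p = 0.00011, range 0.00011 to 0.994). Fpr1, at 8 and 40 against 92 and 52, was 3.03-fold lower, and Fpr2, at 33 and 20 against 50 and 36, was 1.64-fold lower, both with an edgeR adjusted p of 1. The formyl peptide receptor genes had shown less separation from LPS alone, where 1 library of each overlapped. S100a9, at 32 and 8 against 108 and 44, was 3.83-fold lower, and Clec4d, at 16 and 0 against 50 and 49, was 6.29-fold lower (edgeR adjusted p = 1 for both, and 0.0356 for Clec4d without LPS+DHEA+Nb replicate 1). Csf3r overlapped, with 19 and 81 counts against 94 and 74, as did Cxcr2, with 0 and 0 against 12 and 0. Itgam was 5.06-fold lower alone and 2.16-fold lower with Gm49368 (edgeR adjusted p = 0.99 and 1), and here too the DESeq2 call ended with the sum (DESeq2 adjusted p = 0.212 against 0.000332).

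Genes that work with the members were taken from 21 lists of partners and of markers of other cells, of which 182 genes other than the members were tested. edgeR called 8 of them higher and 0 lower in LPS against CTRL (4.4% of them, where 0.295% of all genes were called), with 60 at an unadjusted p under 0.05 (7.11% of all genes had one) and 31 called by DESeq2, 23 higher and 8 lower. In LPS+DHEA against LPS edgeR and DESeq2 called 0, with 13 at an unadjusted p under 0.05 (7.14% of them, where 3.51% of all genes had one). In LPS+DHEA+Nb edgeR called 6 lower and 0 higher against LPS (3.3% of them, 0.17% of all genes). Against LPS+DHEA it called 2 lower and 0 higher (1.1% of them, 0.0871% of all genes). DESeq2 called 19 lower and 5 higher against LPS, and 8 lower and 2 higher against LPS+DHEA, where it called 207 and 116 of all genes. At an unadjusted p under 0.05 there were 49 and 41 list genes (6.56% and 4.4% of all genes had one).

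Of 13 granule protein genes tested, edgeR and DESeq2 called 1 higher after LPS, with 3 at an unadjusted p under 0.05. This was Lcn2, an iron-sequestering protein also made by epithelia, which had 20770 and 19620 counts after LPS against 7949 and 7992 (log2 fold change 1.35, SE 0.12, edgeR adjusted p = 0.00218). Its counts were 14310 and 15294 in LPS+DHEA, between both groups, and 8892 and 6580 in LPS+DHEA+Nb, around the CTRL level. The fall in LPS+DHEA+Nb was called against LPS (edgeR adjusted p = 0.00344) and against LPS+DHEA (edgeR adjusted p = 0.0365). Mpo, the peroxidase of azurophil granules, had 192 and 204 counts after LPS against 200 and 197, so its libraries overlapped and it was detected without LPS.

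Of 20 other neutrophil surface and signalling genes, edgeR called 0 in any of these comparisons. After LPS 7 had an unadjusted p under 0.05, all higher, and DESeq2 called 2 (Fcgr4 and Cebpd). Over the 20 genes the log2 fold change was positive for 13 and negative for 7. Fcgr4, an Fc receptor, had 98 and 80 counts after LPS against 4 and 10 (edgeR adjusted p = 0.062), and the complement receptor gene C5ar1 had 118 and 34 against 20 and 10 (edgeR adjusted p = 0.305). Cebpd, a transcription factor of the C/EBP family, had 458 and 575 counts against 204 and 228 (edgeR adjusted p = 0.0503), with 243 and 192 in LPS+DHEA+Nb. LPS libraries were above CTRL libraries in all 3 genes.

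Ligands of the receptors were measured too. Among 5 formyl peptide receptor ligands tested, the acute phase proteins Saa3 and Saa1 rose after LPS by edgeR, and DESeq2 also called Saa2 and App. Saa3 had 7244 and 10077 counts after LPS against 56 and 95, 6004 and 5998 with DHEA, and 1058 and 782 with DHEA and Nb23-bi. It fell in LPS+DHEA+Nb against LPS (log2 fold change -3.25, SE 0.27, edgeR adjusted p = 0.0182), to a level above CTRL. Saa1 had 179 and 207 counts after LPS against 28 and 44 (edgeR adjusted p = 0.00976). Saa1 and Saa2 are close copies, so their separate counts are uncertain.

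Of 3 CXCR2 ligands tested, edgeR called 0 after LPS (2 at an unadjusted p under 0.05, 1 called by DESeq2). The neutrophil chemokine gene Cxcl1 had 79 and 68 counts after LPS against 3 and 13 (edgeR adjusted p = 0.126), 102 and 45 with DHEA, and 9 and 6 with DHEA and Nb23-bi. Csf3, which encodes the ligand of Csf3r, had 35 and 24 counts after LPS against 0 and 4 (edgeR adjusted p = 0.389), 13 and 9 with DHEA, and 30 and 21 with DHEA and Nb23-bi. The counts of Cxcl1 in LPS+DHEA+Nb lay near CTRL and those of Csf3 near LPS, and whether these patterns differ was not tested.

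In the list of the G-CSF axis, edgeR called 3 of 10 genes tested higher after LPS. At an unadjusted p under 0.05 there were 7, and DESeq2 called 5. The signalling inhibitor Socs3 and Csf2rb, a receptor subunit for GM-CSF, were among those called by edgeR. Socs3 had 297 and 404 counts after LPS against 80 and 58 (edgeR adjusted p = 0.00936), and Csf2rb had 155 and 216 against 53 and 38 (edgeR adjusted p = 0.0487). Csf2rb fell in LPS+DHEA+Nb against LPS (log2 fold change -2.24, SE 0.36, edgeR adjusted p = 0.0427), with 43 and 36 counts against 155 and 216. In LPS+DHEA it had 75 and 88 counts, also below LPS (log2 fold change -1.17, edgeR unadjusted p = 0.00575, not called). Its near copy Csf2rb2 makes the separate values uncertain.

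For the integrin, Itgb2, the beta chain that pairs with Itgam, had 275 and 214 counts after LPS against 116 and 195 (edgeR adjusted p = 0.687), and 194 and 214 in LPS+DHEA+Nb. Of 14 partners and ligands of Mac-1, edgeR called 1 higher after LPS, 6 had an unadjusted p under 0.05 and DESeq2 called 3 higher (Icam1, Vcam1 and C3). The edgeR call was Icam1, the endothelial ligand, with 503 and 511 counts after LPS against 117 and 123 (edgeR adjusted p = 0.000737). Icam1 fell to 181 and 171 counts in LPS+DHEA+Nb (edgeR adjusted p = 0.006 against LPS and 0.0311 against LPS+DHEA). C3, whose fragments Mac-1 binds, had 8546 and 11035 counts after LPS against 979 and 1118 (edgeR adjusted p = 0.21), and 3366 and 1389 in LPS+DHEA+Nb, with both LPS libraries above all of those.

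Timp1, an inhibitor of collagenases such as Mmp8, was the 1 gene of 8 tested in its list that edgeR called higher after LPS, with 676 and 687 counts against 54 and 70 (edgeR adjusted p = 0.000264). DESeq2 also called Mmp14, a membrane-bound metalloprotease, with 1898 and 2038 counts against 1249 and 1472 (edgeR adjusted p = 0.0976). Timp1 fell to 252 and 163 in LPS+DHEA+Nb (edgeR adjusted p = 0.018 against LPS). Of 14 C-type lectin partners, edgeR called 0 after LPS (4 at an unadjusted p under 0.05, 2 called by DESeq2). Fcer1g, the adaptor through which Clec4e signals, had 327 and 209 counts after LPS against 103 and 204, and the kinase gene Syk downstream of it had 305 and 286 against 93 and 144 (edgeR adjusted p = 0.613 and 0.262).

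Relatives of the members and their receptors were read next. Of 9 other S100 genes, edgeR called 0 after LPS (3 at an unadjusted p under 0.05, 1 called by DESeq2). The DESeq2 call was S100a6, which had 371 and 403 counts against 193 and 114 (edgeR adjusted p = 0.093). The other 5 formyl peptide receptor genes had 0 counts in all 8 libraries. edgeR called 0 of 7 calprotectin receptor genes and 0 of 6 NADPH oxidase genes after LPS, with 1 and 2 at an unadjusted p under 0.05 and 0 and 1 called by DESeq2. Cybb, the catalytic subunit of the phagocyte oxidase, had 322 and 387 counts after LPS against 126 and 175 (edgeR adjusted p = 0.148).

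Of 16 macrophage markers, edgeR called 0 after LPS, with 5 at an unadjusted p under 0.05 (2 higher and 3 lower) and 3 called lower by DESeq2. Cd163, a scavenger receptor of resident macrophages, fell in LPS+DHEA+Nb against LPS (13 and 27 counts against 185 and 125, edgeR adjusted p = 0.0318), and had 94 and 154 in CTRL. With DHEA alone after LPS it had 45 and 54 counts, also below LPS (log2 fold change -1.63, edgeR unadjusted p = 0.00255, not called). In LPS+DHEA+Nb against LPS 8 macrophage markers were higher and 8 lower, and DESeq2 called Cd163 lower and Cx3cr1, the fractalkine receptor gene, higher. Cx3cr1 had 226 and 220 counts in LPS+DHEA+Nb against 86 and 69 in LPS (edgeR adjusted p = 0.11), and 180 and 217 in CTRL. Adgre1, which encodes F4/80, had its highest count, 881, in LPS+DHEA+Nb 2, a library in which most members were low, and 290 to 590 in CTRL and LPS. Of 9 monocyte, 9 lymphocyte, 5 eosinophil, basophil and mast cell, 4 platelet and 6 red blood cell markers, edgeR and DESeq2 called 0 after LPS, with 2, 1, 0, 1 and 1 at an unadjusted p under 0.05.

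Markers of the testis itself were read in the same way. Of 7 Leydig cell markers, edgeR called 0 after LPS, 5 had an unadjusted p under 0.05, all lower, and DESeq2 called 4 lower. Their summed level was 869 to 1018 CPM in CTRL, 698.4 to 726.9 in LPS, 628 to 645.8 in LPS+DHEA and 823.1 to 941.8 in LPS+DHEA+Nb, low in the groups where the members were high. Of 9 Sertoli and 9 germ cell markers edgeR called 0 after LPS, with 1 and 3 at an unadjusted p under 0.05 and 1 each called by DESeq2. The part of cell composition in the members' values was not tested.

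The genes whose levels followed the summed members most closely over the 8 libraries were Arhgap31 (Pearson r = 0.976), Slc16a10 (0.975), Sdsl (0.961), App (0.957) and Drp2 (0.948), out of 13987 genes with a mean of at least 1 CPM. The correlation was taken on log2(CPM + 0.5) and is a description, since libraries of 4 groups share their treatment and so many genes were searched. The sum held Itgam without Gm49368, so LPS 2 entered it with 176 Itgam counts and without the 463 of Gm49368. The ranking with both gene models was not tested. App, the precursor of amyloid peptides that Fpr2 binds, had 117.3 and 113.1 CPM after LPS against 86.3 and 83.9, and 88.6 and 98.8 CPM in LPS+DHEA+Nb. Arhgap31, a regulator of small GTPases, had 18.1 and 17.3 CPM after LPS against 13.2 and 11.7, and 13.2 and 14.6 CPM in LPS+DHEA+Nb. Both genes thus varied within a narrower range than the members.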

How the data were processed

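RNA-seq libraries of 8 testis samples (4 groups of 2, grouped by their titles) were made with a stranded kit, per the labels' protocols. The authors deposited 1 unscaled value per gene and library, called a count in the file headers and treated as an expected count (estimated count). The submitters' processing notes name HISAT, featureCounts 1.5.0-p3 and GRCm38. The sources used here do not say how strand and multiply mapped reads were handled. Deposited values are whole numbers, so none was rounded, but 33.5% of values from 1 to 40 are multiples of 4, against 25% from 1000 to 10000, so tests planned for counts were also run on counts divided by 4. Of 55421 gene identifiers, 55154 had a symbol.

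Genes were filtered with filterByExpr (minimum count 10, minimum total 15; 26414 kept), scaled by TMM and fitted in a single robust quasi-likelihood model of 4 group means with edgeR 4.0.16 in R 4.3.3. Benjamini-Hochberg adjustment was over all genes tested, and genes were called at an adjusted p under 0.05. Alternatives used DESeq2 1.42.0, limma-voom (limma 3.58.1), other scalings, no filter, the compared groups alone, the replicate number as a block, counts divided by 4 and each library left out. The sum of Itgam and Gm49368 was added after the data were seen. Ratios are of mean CPM, and where a group had 0 counts the floor was 3 counts per library. Ratio intervals are exact conditional binomial (Clopper-Pearson) intervals on summed counts. Steps were tested on simulated data.

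The members, lists and tests were chosen with earlier results of these data known. All 10 members are named in every comparison. Of each list, the genes named come from those called, the most abundant gene and the 4 with the smallest p in LPS against CTRL. One list gene is not reported here by name. Ly6g, Camp, Retnlg, Mpo, Itgb2 and Csf3 were added after their values were seen. Gene positions are from GENCODE M21, promoters from RefSeq (10 of 10 members matched by symbol; the first bases after the start lie in a GENCODE transcript for 8, not for S100a8 and Mmp8).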

Additional observations from a re-analysis of the deposited data

How the results depend on the processing

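Over 18 alternatives, 0 members were called in LPS+DHEA against LPS. In LPS+DHEA+Nb against LPS, DESeq2 called 3 and, with Gm49368 added to Itgam, 2, while no filter on low counts gave 1 (S100a8) and leaving out single libraries gave 0 to 1. In LPS+DHEA+Nb against LPS+DHEA, DESeq2 called 3 and, with Gm49368 added, 2, and leaving out single libraries gave 0 to 1. Both single calls were Clec4d without LPS+DHEA+Nb replicate 1. With counts divided by 4, limma-voom, other scalings or the 2 compared groups alone, 0 members were called in these comparisons. Same-numbered libraries did not deviate together (correlations of -0.038 to 0.06 between groups), so the titles' replicate numbers were not taken as pairs. As a replicate block they gave 1 member (Clec4e) in LPS+DHEA+Nb against LPS, 0 in the other comparisons and 7 list genes in LPS against CTRL.

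The count of 8 list genes called in LPS against CTRL was 31 with DESeq2, 31 with DESeq2 and Gm49368 added and 19 without a filter, and 6 to 13 without single libraries, with 13 without LPS+DHEA+Nb replicate 1 or 2. Counts over all genes ranged from 49 to 291 (main 78) for LPS against CTRL, 5 to 35 (5) for LPS+DHEA against LPS, 19 to 207 (45) for LPS+DHEA+Nb against LPS and 11 to 116 (23) against LPS+DHEA, the highest with DESeq2 each time. The summed level without Itgam was 1.013 CPM in CTRL, 7.77 in LPS+DHEA and 2.13 in LPS+DHEA+Nb, and with Gm49368 added it was 2.1 in CTRL and 6.29 in LPS+DHEA+Nb. In both of these sums the LPS mean lay above that of LPS+DHEA, the reverse of the main sum. Without single libraries the main sum ran from 1.5 to 1.65 CPM in CTRL, 9.74 to 20.4 in LPS, 13.3 to 20.3 in LPS+DHEA and 2.86 to 4.95 in LPS+DHEA+Nb.

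Of 161 log2 fold changes of members in LPS+DHEA against LPS, 12 turned direction. These were Clec4e without LPS replicate 1 (0.57), Csf3r without LPS replicate 2 (-0.07) or LPS+DHEA replicate 1 (-0.08), Fpr2 without LPS replicate 2 (0.43) or LPS+DHEA replicate 2 (0.08), and S100a8 with limma-voom (-0.04) and without LPS replicate 2 (-0.2) or LPS+DHEA replicate 1 (-0.89). Itgam turned without LPS replicate 2 (-0.04) and with Gm49368 added (-0.1, and -0.11 with DESeq2), and S100a9 came to 0 without LPS replicate 1. In LPS+DHEA+Nb against LPS, Csf3r came to 0 without LPS+DHEA+Nb replicate 1, and the other 159 of 160 kept their direction, as did 159 of 159 against LPS+DHEA. Without single libraries, these log2 fold changes against LPS ran from -1.25 to 0.57 for Clec4e, -0.08 to 0.21 for Csf3r, -0.51 to 0.43 for Fpr2, -0.04 to 1.67 for Itgam, -0.89 to 0.7 for S100a8 and -1.34 to 0 for S100a9 in LPS+DHEA, and from -2.09 to 0 for Csf3r in LPS+DHEA+Nb. The cause was not tested. With counts divided by 4, bounds against CTRL were about 4 times smaller where any was left, and none was left for Mmp8 in LPS, Cxcr2 in LPS+DHEA or S100a8 in LPS+DHEA+Nb. At this depth 22 of the members' 80 values are 0.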
